A study of Oryza sativa with 12 samples.

Results

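Plants that meet the cold switch on a relay of transcription factors. DREB1 proteins, also called CBF, bind the DRE/CRT element in the promoters of cold-regulated genes and activate them, and MYB4, an R2R3-type MYB protein, is a further regulator of the cold response in rice. Downstream stand enzymes of protective sugars, such as TPP7, which makes trehalose from trehalose-6-phosphate, and dehydrins, such as DHN1, hydrophilic proteins that protect membranes and other proteins when cells lose water. The genes described here are the regulators DREB1A, DREB1B and MYB4 and the effectors TPP7 and DHN1. They were taken by symbol or synonym from the gene annotation of the Affymetrix rice array, which gave 5 of the 17905 genes that have a probe set of their own, with 9 of the 57258 probe sets tested. A probe set is a group of short probes against one transcript, and its value is a log2 signal, so that a step of 1 is a doubling.

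The RNA came from meiosis-stage inflorescences of 2 lines of japonica rice. H1493 is the wild-type variety, and TGMS-Co27 is a single transgenic line in the H1493 background in which over-expression of a construct derived from Ugp1, the gene of a UDP-glucose pyrophosphorylase, cosuppresses Ugp1, and which is male sterile at high temperature and fertile at low temperature. High-temperature plants (H1493HT and Co27HT) were harvested in July from a field in Wuhan at a daily average of 28°C, and low-temperature plants (H1493LT and Co27LT) in January from a paddy in Lingshui at 20°C. Temperature, day length, site and season changed together and cannot be told apart. Each of the 4 groups had 3 arrays, each labelled as a biological replicate, and this number limits the precision of every value.

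Replicate arrays of a group correlated at 0.9826 to 0.9898 across bright probe sets (a mean log2 signal of 6 or more), and no array stood apart. Ugp1 (LOC_Os09g38030, its probe set named from the study's own annotation) had mean log2 signals of 13.4 in H1493HT, 11.4 in Co27HT, 13.61 in H1493LT and 12.89 in Co27LT, so it was lower in the transgenic line at both temperatures (4.02-fold, adjusted p = 4.5e-06, and 1.65-fold, adjusted p = 0.0015). All 8 measured MADS-box genes of floret organs were called present on all 12 arrays. At low temperature 3 of them were lower in both lines, where 14.7% and 13.0% of all probe sets were called lower in TGMS-Co27 and H1493. Of bright probe sets 59.2% and 54.3% were called in either direction, so such a change was common. The differences in TGMS-Co27 and H1493 were -0.89 and -0.58 for MADS16, -0.91 and -0.64 for MADS4 and -1.09 and -1.07 for MADS3. With median centring the H1493 difference of MADS16 was -0.4 (adjusted p = 0.058).

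Of the 9 probe sets, 6 were called present on all 12 arrays, at least 1 for each gene, and the other 3 (1 of TPP7 and 2 of DHN1) were called present on 0 arrays. Those 3 had log2 signals between 0.0 and 4.94, none of their differences passed the test, and they give no usable level. DREB1B, DREB1H and DREB1A are neighbours in this order on chromosome 9 in the RefSeq annotation (assembly ASM3414082v1), which also places TPP7 on chromosome 9, MYB4 on chromosome 4 and DHN1 on chromosome 2. No probe set was matched to DREB1H.

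By the differences called between low and high temperature, the 5 genes fell into 3 patterns. DREB1A and DHN1 were higher at low temperature in both lines, by 4.49-fold to 9.29-fold. TPP7 and MYB4 (its brighter probe set) were 5.58-fold and 4.68-fold higher at low temperature in TGMS-Co27. In H1493 MYB4 was 1.32-fold higher and TPP7 showed no called difference. DREB1B fell 3.83-fold in H1493 and showed no called change in TGMS-Co27. Below, the response of a line means its low-minus-high difference. That of DREB1A was 0.91 larger in TGMS-Co27 than in H1493 (95% interval 0.41 to 1.4), which limma did not call (adjusted p = 0.11). That of the dimmer MYB4 probe set was 1.12 larger, also not called (adjusted p = 0.24). In whole inflorescences a lower share of an expressing cell type and less transcript per cell cannot be told apart.

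**Figure D1:**
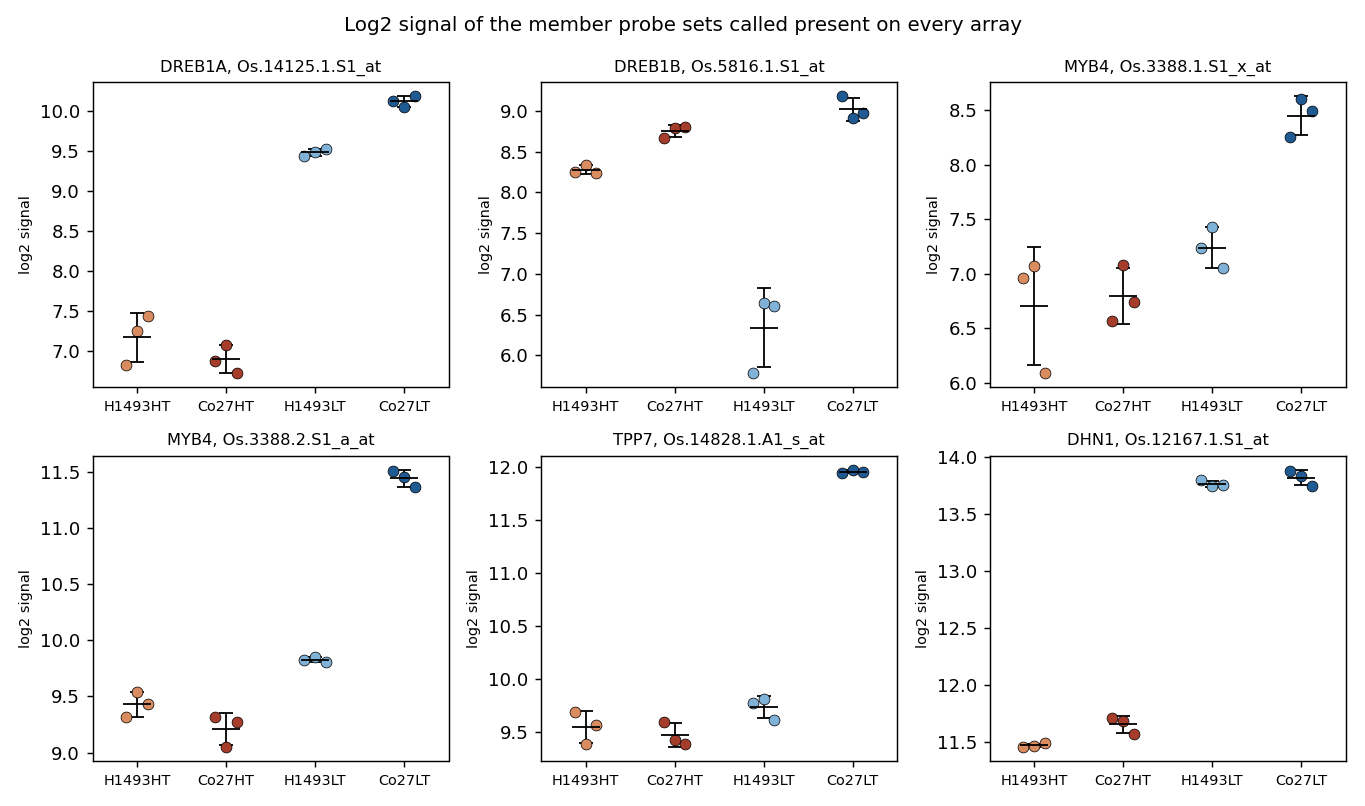
Log2 signal (vertical axis, scaled separately in each panel) of the 6 member probe sets called present on every array, by group. Points are single arrays, and bars are the mean and SD of 3 arrays. DREB1A and DHN1 are high in both low-temperature groups, TPP7 and MYB4 are highest in Co27LT, and DREB1B is lowest in H1493LT.

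DREB1A (LOC4347620, locus LOC_Os09g35030) encodes one of the DREB1 activators. Its log2 signals were 6.83, 7.25 and 7.43 in H1493HT and 6.88, 7.08 and 6.73 in Co27HT. At low temperature they were 9.43, 9.49 and 9.52 in H1493LT and 10.12, 10.05 and 10.18 in Co27LT. Every low-temperature array lay above every high-temperature array, while the high-temperature groups overlapped. The difference between low and high temperature was 2.31 ± 0.16 (SE, n = 3 per group) on the log2 scale in H1493, or 4.96-fold (adjusted p = 7.7e-06), and 3.22 ± 0.16 in TGMS-Co27, or 9.29-fold (adjusted p = 1.1e-06). At low temperature all 3 Co27LT arrays were above all 3 H1493LT arrays, by 0.63 (95% interval 0.28 to 0.99), which did not pass after adjustment over all probe sets (adjusted p = 0.11). The response of TGMS-Co27 exceeded that of H1493 by 0.91 (0.41 to 1.4, adjusted p = 0.11), which also missed the threshold. Both passed without H1493HT replicate 1 (adjusted p = 0.04 and 0.045). At high temperature the lines differed by -0.27 (-0.62 to 0.08, adjusted p = 0.44).

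DREB1B (LOC4347618), a second DREB1 activator, behaved differently. Its log2 signals were 8.25, 8.34 and 8.24 in H1493HT and 8.67, 8.79 and 8.8 in Co27HT. They were 5.78, 6.64 and 6.6 in H1493LT and 9.18, 8.91 and 8.97 in Co27LT. H1493LT was the lowest group and overlapped no other, and the remaining groups stood in the order H1493HT, Co27HT, Co27LT. In H1493 the gene fell by 1.94 ± 0.21 on the log2 scale at low temperature (adjusted p = 0.00012). In TGMS-Co27 the same difference was 0.27 (95% interval -0.21 to 0.74, adjusted p = 0.42). As a result Co27LT exceeded H1493LT by 2.68 ± 0.21, or 6.41-fold (adjusted p = 0.00035). The low-minus-high differences of the lines differed by 2.2 ± 0.3 (adjusted p = 0.013). At high temperature TGMS-Co27 was 0.48 above H1493 (0 to 0.95 as rounded, adjusted p = 0.3). Neighbours in the order other than H1493LT and H1493HT did not differ beyond the test, though Co27LT and H1493HT, which are not neighbours, did (0.74, adjusted p = 0.027).

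MYB4 (LOC4336407) was read by 2 probe sets. The brighter one, with the suffix _a_at of probe sets against several transcripts of 1 gene, gave log2 signals of 9.32, 9.54 and 9.43 in H1493HT and 9.32, 9.05 and 9.27 in Co27HT. It gave 9.82, 9.85 and 9.81 in H1493LT and 11.51, 11.45 and 11.36 in Co27LT. The Co27LT arrays stood apart from all others, and the H1493LT arrays lay just above the high-temperature arrays. In TGMS-Co27 MYB4 was 2.23 ± 0.1 higher at low temperature, or 4.68-fold (adjusted p = 7.9e-07). In H1493 it was 0.4 ± 0.1 higher, or 1.32-fold (adjusted p = 0.017). This smaller rise no longer passed without H1493HT replicate 1 (0.34, adjusted p = 0.058) or without H1493LT replicate 2 (0.39, adjusted p = 0.056). The difference between the responses was 1.83 ± 0.14 (adjusted p = 0.0011), and Co27LT exceeded H1493LT 3.06-fold (1.61 ± 0.1, adjusted p = 0.0001). At high temperature the lines differed by -0.22 (-0.45 to 0.02, adjusted p = 0.34).

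The dimmer MYB4 probe set carries the suffix _x_at of probe sets that may also bind other transcripts. Its log2 signals ran from 6.09 to 7.07 in H1493HT, 6.57 to 7.08 in Co27HT, 7.05 to 7.43 in H1493LT and 8.25 to 8.6 in Co27LT. The order was close to that of the brighter set, with Co27LT above all others. It was 3.14-fold higher at low temperature in TGMS-Co27 (1.65 ± 0.26, adjusted p = 0.001). The other differences did not pass, with 1.21 between Co27LT and H1493LT (95% interval 0.62 to 1.8, adjusted p = 0.066), 0.53 between H1493LT and H1493HT (-0.06 to 1.12, adjusted p = 0.19) and 1.12 between the responses (0.29 to 1.96, adjusted p = 0.24). Without H1493HT replicate 3, the lowest array of its group, the difference between Co27LT and H1493LT passed (1.21, adjusted p = 0.014).

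TPP7 (LOC4346885, locus LOC_Os09g20390) encodes a trehalose-6-phosphate phosphatase. The suffix _s_at of its bright probe set marks probes that may match transcripts of several genes. Its log2 signals were 9.69, 9.39 and 9.57 in H1493HT and 9.6, 9.43 and 9.39 in Co27HT. They were 9.78, 9.81 and 9.62 in H1493LT and 11.94, 11.97 and 11.95 in Co27LT. The 3 Co27LT arrays lay close together and far above all others, and no neighbours in the order Co27HT, H1493HT, H1493LT differed by the test. TPP7 was 2.48 ± 0.11 higher at low temperature in TGMS-Co27, or 5.58-fold (adjusted p = 5.9e-07). In H1493 the difference was 0.19 (95% interval -0.06 to 0.43, adjusted p = 0.27). The responses differed by 2.29 ± 0.15 (adjusted p = 0.00059). Co27LT exceeded H1493LT 4.65-fold (2.22 ± 0.11, adjusted p = 2.5e-05), and Co27HT and H1493HT differed by -0.08 (-0.32 to 0.17, adjusted p = 0.8).

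DHN1 (LOC4330265, locus LOC_Os02g44870), a dehydrin also listed as LIP9, rose in both lines. Its log2 signals were 11.46, 11.47 and 11.49 in H1493HT and 11.71, 11.69 and 11.57 in Co27HT. They were 13.8, 13.75 and 13.76 in H1493LT and 13.88, 13.84 and 13.75 in Co27LT. The low-temperature groups overlapped each other and lay far above both high-temperature groups. The gene was 4.91-fold higher at low temperature in H1493 (2.3 ± 0.08, adjusted p = 3.5e-07) and 4.49-fold higher in TGMS-Co27 (2.17 ± 0.08, adjusted p = 2.8e-07). The difference between these responses was -0.13 (95% interval -0.39 to 0.13, adjusted p = 0.7), so a difference of more than 0.39 in size lies outside the interval. Between the lines the difference was 0.05 at low temperature (-0.13 to 0.24, adjusted p = 0.92) and 0.18 at high temperature (0 to 0.36 as rounded, adjusted p = 0.29).

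**Figure D2:**
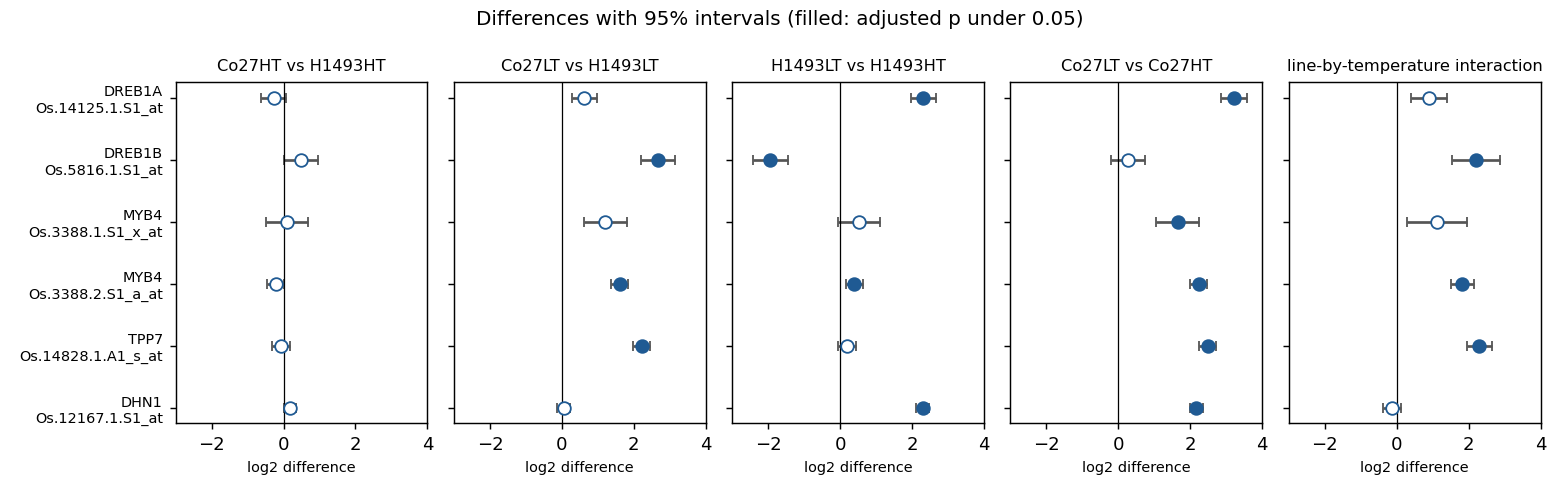
Log2 differences (horizontal axis) of the 6 member probe sets in the 5 comparisons, with 95% intervals. Filled points have an adjusted p under 0.05. In the interaction panel, the response of TGMS-Co27 minus that of H1493, DREB1B (2.2), MYB4 (1.83) and TPP7 (2.29) are filled.

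The counts of called members can be set against those of the whole array. Between low and high temperature 5 of the 9 probe sets were called higher in TGMS-Co27, where 15.1% of all probe sets were, and in H1493 3 were called higher and 1 lower, where 13.8% and 13.0% of all probe sets were. Of all probe sets whose mean log2 signal reached 6 or more, 59.2% and 54.3% were called in one direction or the other, so a called temperature difference was common in these florets. Between Co27LT and H1493LT 3 of the 9 were called higher (DREB1B, MYB4 and TPP7), against 0.856% of all probe sets. The interaction was called above 0 for the same 3, against 0.576%. The members were chosen with earlier results of these data known, so setting their counts against these shares is no test. The whole array also holds 23784 probe sets called present on 0 arrays. Between Co27HT and H1493HT limma called 0 of 9, against 2.58% of all probe sets. By limma's unadjusted value 1 of them, DHN1, was under 0.05, and it was called under 3 other settings. With the 3 probe sets called present on 0 arrays included, the median log2 difference of the 9 was 1.65 and 0.4 for low against high temperature in TGMS-Co27 and H1493, 1.21 for Co27LT against H1493LT, -0.16 for Co27HT against H1493HT and 1.12 for the interaction, where the medians of all probe sets were -0.16, -0.07, -0.01, 0.03 and -0.03. The member median for Co27HT against H1493HT is the value of 1 of those 3 probe sets and describes no detected gene.

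Markers of other tissues moved between the groups as well. Of the 10 green-tissue names, 2 were measured, and their summed linear signal was 3681 to 4525 in H1493HT, 1780 to 1968 in Co27HT, 19703 to 21031 in H1493LT and 13731 to 13996 in Co27LT. CAB2R, a chlorophyll a/b-binding protein gene, was higher at low temperature and RBCS, the small subunit of Rubisco, lower, in both lines. CAB2R had an interaction of the same sign as DREB1B, MYB4 and TPP7 (1.37, adjusted p = 0.011), and that of RBCS was -0.42 (adjusted p = 0.32). Between Co27LT and H1493LT CAB2R differed by -0.55 (adjusted p = 0.08). CAB2R was lower in Co27HT than in H1493HT (-1.92, adjusted p = 0.0002), though not with only the 6 arrays compared (adjusted p = 0.078). The 6 measured genes of the anther tapetum, which feeds the developing pollen, summed to 2561 to 2761, 2175 to 2546, 1998 to 2162 and 1553 to 1647 in the same order of groups, and 2 of them were lower in Co27LT than in H1493LT (TDR with a log2 difference of -1.06 and CYP703A3 with -1.64, adjusted p = 0.016 and 0.013). The call of TDR was lost without H1493LT replicate 1 or 2 or Co27LT replicate 1 or 3 (-1.09 to -0.98, adjusted p = 0.057 to 0.075) and with only the 6 arrays compared (adjusted p = 0.078), and that of CYP703A3 without H1493LT replicate 1 or 3 or Co27LT replicate 2 or 3 (-1.67 to -1.51, adjusted p = 0.054 to 0.06). Of 7 meiosis genes, 6 were called higher at low temperature in the transgenic line and 3 in H1493, where 15.1% and 13.8% of all probe sets were. Of bright probe sets 59.2% and 54.3% were called in either direction. For 0 of the 7 did limma call an interaction or a difference between Co27LT and H1493LT. Over all probe sets 0.576% and 0.856% were called above 0 in these comparisons. The counts of 6 and 3 therefore show no called difference between the lines. No signal of these markers was at 0 on any array, but not every marker was called present on every array. Of the tapetum genes, RTS was called present on 0 arrays, C6 on 4 and TDR on 11. The meiosis gene PAIR1 was called present on 8. RTS therefore gives no usable level, though it is counted in the tapetum sums. The part of these markers in the results was not tested.

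The rest of the pathway was read from 7 gene lists by role, in which only names that the annotation matched could be measured. Among other DREB1 genes 3 of 8 names were measured, and 2 of the 3 were called higher in Co27LT than in H1493LT, where 0.856% of all probe sets were. DREB1E had mean log2 signals of 6.12 in H1493HT, 6.89 in Co27HT, 5.36 in H1493LT and 7.57 in Co27LT, and the low-temperature groups differed by 2.21 (adjusted p = 0.001, called present on 10 of 12 arrays). DREB1G had 5.28, 6.3 and 5.75 in H1493HT, 5.73, 5.04 and 6.07 in Co27HT, 1.28, 3.4 and 5.32 in H1493LT and 8.51, 8.66 and 8.62 in Co27LT. Its low-temperature groups did not overlap, but the H1493LT arrays were scattered. DREB1G was called present on 8 of 12 arrays, so the difference of 5.26 (adjusted p = 0.015) has no exact size, and it did not pass without H1493LT replicate 2 (5.3, adjusted p = 0.06) or without Co27LT replicate 1, 2 or 3 (5.31, 5.23 and 5.25, adjusted p = 0.058, 0.059 and 0.061), nor with only the 6 arrays compared (adjusted p = 0.17). The 3 probe sets of DREB1C were called present on 0, 0 and 1 of 12 arrays, with log2 signals of 0.0 to 5.42, so they give no usable level.

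Among DREB2 genes, drought and heat relatives of DREB1, and other DREB genes, 3 of 9 names were measured, all of them DREB2 genes. DREB2A was 1.18 higher in Co27LT than in Co27HT (adjusted p = 0.00023), with 0.41 in H1493 (adjusted p = 0.073). DREB2B was lower at low temperature in both lines, with -1.05 in TGMS-Co27 and -0.73 in H1493 (adjusted p = 2.3e-05 and 0.00026). DREB2D did not pass in any comparison.

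Among regulators that act upstream of DREB1, 9 of 22 names were measured, and 5 were higher and 2 lower at low temperature in each line, where 59.2% of bright probe sets were called in either direction in TGMS-Co27 and 54.3% in H1493. CIPK3, a kinase of calcium signalling, was 1.73 higher in TGMS-Co27 and 1.58 in H1493 (adjusted p = 1e-06 and 2.3e-06). CDPK13, a calcium-dependent protein kinase, was 0.98 and 0.79 higher, and MYB3R-2, a MYB protein of the cold response and cell cycle, was 1.05 and 0.84 higher. MYBS3, a MYB repressor of DREB1 genes in rice, was lower at low temperature, with differences of -0.75 in TGMS-Co27 and -1.36 in H1493 (adjusted p = 0.0024 and 7.9e-05). For these 9 genes limma called 0 line differences and 0 interactions. Over all probe sets 2.58% were called between Co27HT and H1493HT. Between Co27LT and H1493LT 0.856% were called higher, and 0.576% had an interaction called above 0. Such calls were rare, so 0 of 9 is no result about these genes. Their median interaction was 0.16 against -0.03 over all probe sets.

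Among other cold and stress transcription factors 7 of 21 names were measured. For 1 of them, MYB30, the annotation matched the gene of MYBS3, so that gene is counted in both lists. The 2 temperature directions were mixed, with 3 higher and 2 lower in TGMS-Co27 and 2 higher and 4 lower in H1493. Of bright probe sets the same 59.2% and 54.3% were called either way. BZIP52, a bZIP protein, rose by 2.87 in TGMS-Co27 and by 2.95 in H1493 (adjusted p = 9.1e-06 and 9.9e-06). WRKY71, a WRKY protein of stress responses, had 9.69, 9.62 and 9.79 in H1493HT, 8.93, 8.98 and 8.78 in Co27HT, 11.1, 11.23 and 11.17 in H1493LT and 12.13, 12.09 and 12.16 in Co27LT. No 2 of its groups overlapped. The gene was lower in the transgenic line at high temperature (-0.8, adjusted p = 0.0048) and higher in it at low temperature (0.96, adjusted p = 0.001), and the responses differed by 1.76 (adjusted p = 0.00075, against 0.576% of all probe sets called above 0). The difference at high temperature did not pass with only the 6 arrays compared (adjusted p = 0.18).

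Within trehalose metabolism TPP1 also had its highest level in Co27LT. Of 24 other names of trehalose metabolism 6 were measured, all of them TPP genes. TPP1, a further trehalose-6-phosphate phosphatase, gave 8.02, 7.6 and 7.72 in H1493HT, 7.56, 7.34 and 7.99 in Co27HT, 10.92 on all 3 H1493LT arrays and 12.55, 12.65 and 12.56 in Co27LT. It thus stood high at low temperature in both lines and highest in Co27LT. Its low-minus-high differences were 3.14 in H1493 and 4.96 in TGMS-Co27 (adjusted p = 2.4e-06 and 2e-07), and they differed by 1.82 (adjusted p = 0.011). TPP4 was lower at low temperature, with -1.03 in H1493 and -0.87 in TGMS-Co27 (adjusted p = 4.2e-05 and 9.7e-05). TPP3 was called present on 4 of 12 arrays and was higher in H1493LT than in H1493HT (3.96, adjusted p = 0.0053), without an exact size, and not with only the 6 arrays compared (adjusted p = 0.06).

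**Figure D3:**
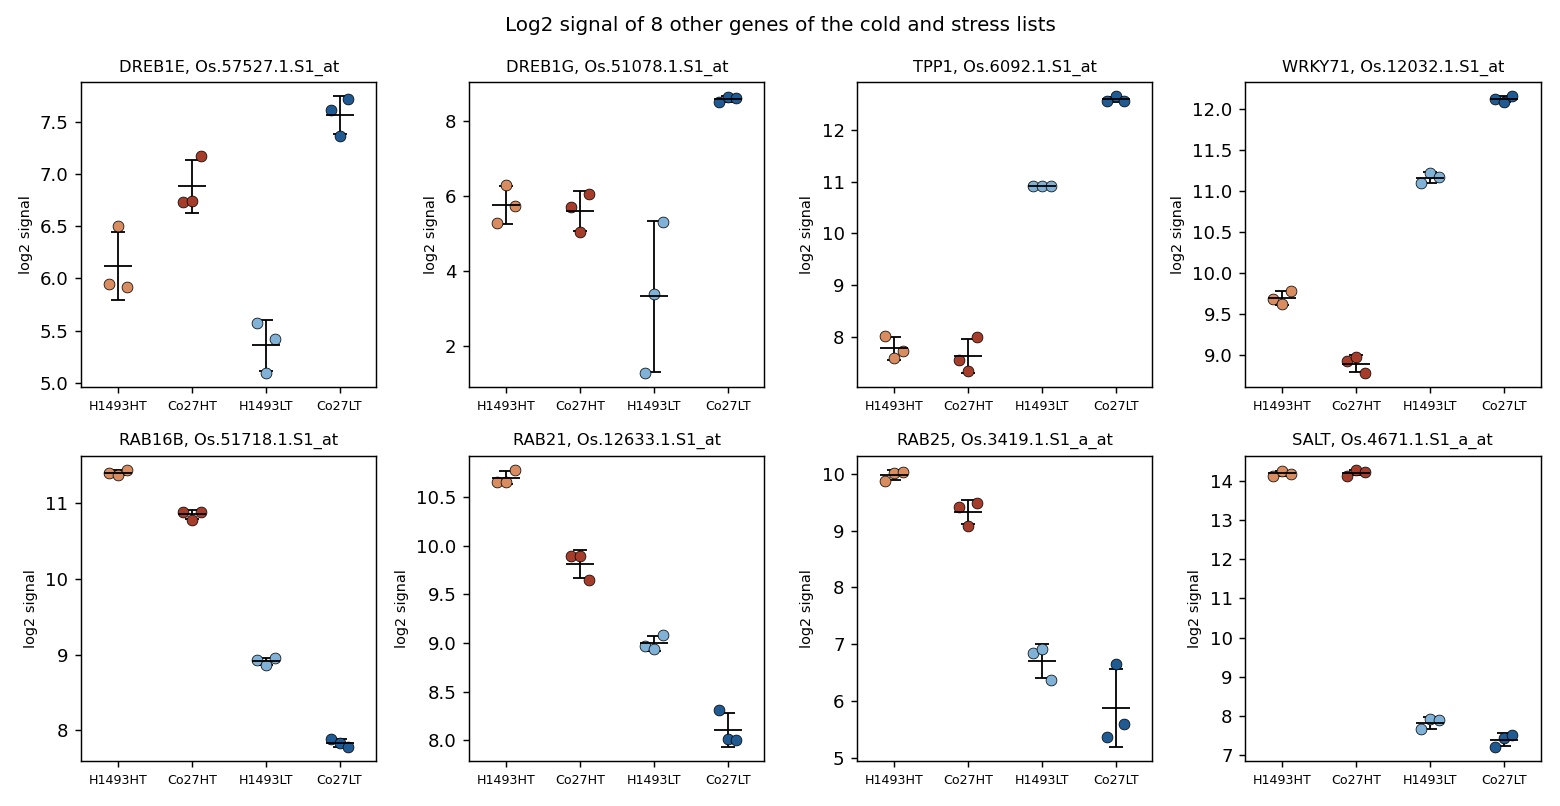
Log2 signal (vertical axis, scaled separately in each panel) of 8 other genes of the cold and stress lists by group. Points are single arrays, and bars are the mean and SD of 3 arrays. DREB1E, DREB1G, TPP1 and WRKY71 are highest in Co27LT, and RAB16B, RAB21, RAB25 and SALT are lower at low temperature in both lines.

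The other dehydrin and LEA genes did not share the direction of DHN1. Of 24 names 7 were measured, and 0 were called higher at low temperature in either line. In TGMS-Co27 4 were lower and in H1493 6, where 14.7% and 13.0% of all probe sets were. Of bright probe sets 59.2% and 54.3% were called in either direction. The median difference of the 7 genes was -1.71 in TGMS-Co27 and -1.7 in H1493, against -0.16 and -0.07 over all probe sets. Both medians include RAB16D (-1.79 in TGMS-Co27 and -2.59 in H1493, neither called). RAB16D was called present on 0 arrays and gives no usable level. RAB16C, among the 6 lower in H1493 (-1.14, adjusted p = 0.042), was called present on only 3 arrays, so its difference has no exact size. RAB16B, a dehydrin responsive to abscisic acid, gave 11.4, 11.37 and 11.44 in H1493HT, 10.89, 10.78 and 10.89 in Co27HT, 8.93, 8.86 and 8.95 in H1493LT and 7.89, 7.83 and 7.78 in Co27LT. Its groups did not overlap, and it was lower in TGMS-Co27 than in H1493 at high temperature (-0.55, adjusted p = 0.013) and at low temperature (-1.08, adjusted p = 0.00023). The difference at high temperature is under 2-fold and did not pass with only the 6 arrays compared (adjusted p = 0.23). RAB21, also a dehydrin, showed -1.71 and -1.7 at low temperature in TGMS-Co27 and H1493, and RAB25 showed -3.45 and -3.27 (adjusted p = 7e-06, 9.1e-06, 3.1e-05 and 5.4e-05). LEA3 was lower too, with -0.92 and -1.34 (adjusted p = 0.00078 and 9.4e-05).

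Of 25 names of other cold-induced genes 7 were measured, and at low temperature 2 were called higher and 4 lower in TGMS-Co27, and 2 higher and 3 lower in H1493, where 59.2% and 54.3% of bright probe sets were called either way. SALT, a mannose-binding lectin first known from salt stress, had the largest difference of all the lists. It gave 14.14, 14.26 and 14.19 in H1493HT, 14.14, 14.28 and 14.23 in Co27HT, 7.65, 7.92 and 7.9 in H1493LT and 7.2, 7.44 and 7.51 in Co27LT. High and low temperature were widely separated, with differences of -6.37 in H1493 and -6.83 in TGMS-Co27 (adjusted p = 5.4e-08 and 1.4e-08). P5CS and P5CS2, both enzymes of proline synthesis, moved in opposite directions, with 0.67 and -0.95 in TGMS-Co27 (adjusted p = 0.00037 and 0.00048) and 0.44 and -0.57 in H1493 (adjusted p = 0.0054 and 0.01). LTI6B, a small membrane protein, was lower, with -0.66 in TGMS-Co27 and -1.02 in H1493 (adjusted p = 0.00041 and 3.5e-05). With median centring the difference of LTI6B in TGMS-Co27 was -0.38 (adjusted p = 0.069) and that of P5CS2 in H1493 was -0.39 (adjusted p = 0.1).

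**Figure D4:**
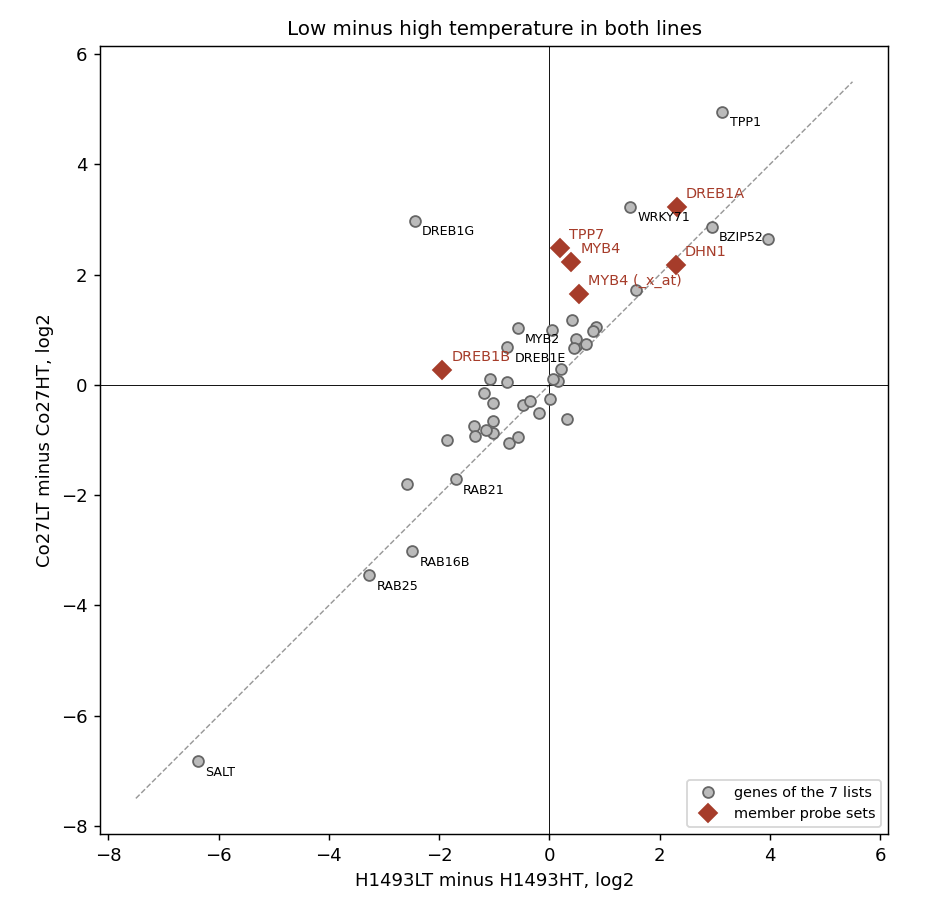
Low-minus-high log2 difference in H1493 (horizontal axis) and TGMS-Co27 (vertical axis), which share no arrays, for the member probe sets (diamonds) and the measured genes of the 7 lists (circles). On the dashed line both responses are equal. DREB1B (-1.94, 0.27), TPP7 (0.19, 2.48) and MYB4 (0.4, 2.23) lie above it, and DHN1 (2.3, 2.17) lies close to it.

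The genes most like each member were found by the root mean square difference of log2 signals over the 12 arrays, after each probe set was centred on its mean, among 17047 probe sets with 1 gene and a mean log2 signal reaching 6. Nearest to DREB1A were LOC4337016 (0.15), LOC4352457 (0.19) and LOC4328676 (0.21), the last of which the study's annotation describes as a 3-ketoacyl-CoA synthase, where the median over all candidates was 1.39. Nearest to DREB1B were LOC4326920 (0.32), LOC4329525 (0.38) and LOC4335798 (0.39), against a median of 1.13. These 3 also had their lowest mean in H1493LT (7.07, 7.31 and 8.46). Nearest to MYB4 was BGLU30, a beta-glucosidase (0.09, median 0.88), with mean log2 signals of 8.94 in H1493HT, 8.71 in Co27HT, 9.46 in H1493LT and 10.88 in Co27LT. Nearest to TPP7 were both probe sets of JAZ10, a repressor of jasmonate signalling (0.18 and 0.19, median 1.04), the first of which had 9.12, 8.63, 8.99 and 11.13 in the same order. Nearest to DHN1 were LOC4337873 (0.1), MCM5, a subunit of the DNA replication helicase (0.1), and LOC4331115 (0.11), against a median of 1.1. MCM5 had means of 9.62, 9.77, 11.7 and 11.84. These distances are descriptions of 12 arrays in 4 groups, and they carry no test.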

How the data were processed

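The authors hybridised labelled RNA of each sample to an Affymetrix rice array and deposited log2 signals per probe set with detection calls, made with MAS5 per the labels. The methods name quantile normalization, but the arrays do not share a distribution. Instead the 2% trimmed mean of the linear signals was 500.065 to 500.076 on every array, and 545 to 1968 values per array were 0. The values were used as deposited, and the normalized table and the value table did not differ. The 123 control probe sets of the 57381 were removed. The array annotation gives 1 gene for 22436 of the others, several for 95 and none for 34727, and symbols were extended with RefSeq synonyms. The members and gene lists were chosen with earlier results of these data known.

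Group means were fitted to all 12 arrays with limma 3.58.1 in R 4.3.3 (lmFit, contrasts.fit, eBayes), and p-values were adjusted by the Benjamini-Hochberg method over the 57258 probe sets of a comparison. A difference was called at an adjusted p under 0.05. The fit was tested on simulated data. The interaction is the low-minus-high difference of TGMS-Co27 minus that of H1493. Intervals are 95% intervals from the same fit. A gene of a list is represented by its brightest probe set, and up to 4 genes per list with a called difference and the largest size were named. Replicate numbers did not pair the arrays. Alternatives were the study's threshold (2-fold with an unadjusted p under 0.05), 2-fold with the adjusted p, median centring, quantile normalization, a present call on at least 1 array, a mean of at least 6, a floor at 5, a fit of only the 6 arrays compared, an intensity trend with robust moderation, a replicate block, removal of probe sets with the suffix _x_at or _s_at, and each array left out. No sequences are shown.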

Additional observations from a re-analysis of the deposited data

Results flagged for a closer look

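By limma's test of the interaction, the low-minus-high difference was not the same in TGMS-Co27 and H1493 for 3 member genes. The same held for 3 genes of the lists and for the green-tissue marker CAB2R. Among members the differences between responses were 2.29 for TPP7 (adjusted p = 0.00059), 1.83 for MYB4 (the brighter probe set, adjusted p = 0.0011) and 2.2 for DREB1B (adjusted p = 0.013). TPP7 and MYB4 rose in TGMS-Co27 by 2.48 and 2.23 and differed by 0.19 and 0.4 in H1493, and DREB1B fell by 1.94 in H1493 and differed by 0.27 in TGMS-Co27.

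Among the list genes the differences were 1.76 for WRKY71 (adjusted p = 0.00075), 1.82 for TPP1 (adjusted p = 0.011) and 1.59 for MYB2, a MYB protein of stress responses (adjusted p = 0.03). MYB2 had mean log2 signals of 7.36 in H1493HT, 6.66 in Co27HT, 6.79 in H1493LT and 7.68 in Co27LT. Its interaction no longer passed when any one of 9 arrays was left out (H1493HT replicates 1 and 3, Co27HT replicates 2 and 3, H1493LT replicates 1, 2 and 3, and Co27LT replicates 2 and 3), with values of 1.46 to 1.69 and adjusted p of 0.057 to 0.081.

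CAB2R, whose difference between responses was 1.37 (adjusted p = 0.011), had mean log2 signals of 11.49 in H1493HT, 9.57 in Co27HT, 14.27 in H1493LT and 13.72 in Co27LT. Its part in the results of the members was not tested.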

How the results depend on the processing

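For the 15 called differences of member probe sets that were called present on all arrays, 331 of 338 values under the alternatives stayed called, 7 did not and 0 changed direction. Of these 7, 6 concern the rise of MYB4 (the brighter probe set) in H1493, which is under 2-fold and had an adjusted p of 0.057 after quantile normalization and 0.052 with only the 6 arrays compared. The other was the DREB1B interaction with the replicate block (2.2, adjusted p = 0.052), and the block changed no other call of a member. With it RAB16B between Co27HT and H1493HT (-0.55, adjusted p = 0.053) and the CAB2R interaction (1.37, adjusted p = 0.058) also did not pass. Replicate numbers did not pair the arrays, since deviations of same-numbered arrays correlated at -0.0972 to 0.0398 over 18 pairs, and 4 of 12 arrays were closest to their own number. The number of member probe sets called rose from 0 to 1 for Co27HT against H1493HT with the floor at 5, the mean of at least 6, and the trend with robust moderation, in each case through DHN1 (0.18, adjusted p = 0.034, 0.044 and 0.018). For Co27LT against H1493LT it rose from 3 to 5 with the mean of at least 6, the present call and the trend, which added DREB1A and the second MYB4 probe set. With the study's threshold the interaction count was 5 in place of 3, through that MYB4 probe set and the dim TPP7 one. The DREB1A interaction, not called in the main fit, passed with the floor at 5, the mean of at least 6, the present call and the trend (0.91, adjusted p = 0.048, 0.016, 0.034 and 0.013). Without probe sets ending in _x_at or _s_at the count in Co27LT against Co27HT was 3 in place of 5, as fewer were tested. With each array left out, the counts ran from 0 to 0 for Co27HT against H1493HT, 3 to 4 for Co27LT against H1493LT, 5 to 6 for Co27LT against Co27HT, 3 to 4 for H1493LT against H1493HT and 3 to 4 for the interaction. For Co27LT against Co27HT no member probe set called present on all arrays gained or lost its call. The count of 6 there includes a probe set called present on 0 arrays. The only difference of a member that turned was that of the dimmer MYB4 probe set between Co27HT and H1493HT, which was not called (0.09) and became -0.01 with median centring, -0.22 without H1493HT replicate 3 and -0.05 without Co27HT replicate 2, with a range of -0.22 to 0.27 over the arrays left out. Median centring moved the median of all probe sets by 0.28 in Co27LT against Co27HT and 0.18 in H1493LT against H1493HT, and turned no called member. For the named list and marker genes, 181 of 1893 values under the alternatives lost their call, 123 of them outside the 2-fold thresholds, and 0 turned. Differences of MYB2, RTS, LEA3, TPP3, TPP9, DREB1E, DREB1G and TDR lost their calls most often, and those of TPP9 were -0.01 and -0.17 with median centring. The low signal of the 3 member probe sets called present on 0 arrays limits what they can show.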
